A study of Mus musculus with 4 samples.

Results

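The BCL2 family holds the proteins that decide whether the outer membrane of the mitochondrion stays closed or is opened during cell death. Described here are 10 of its genes in mouse dendritic cells, out of 23451 genes with a value on the arrays: the survival genes Bcl2, Bcl2l1, Mcl1 and Bcl2a1d, the effectors Bax and Bak1, and the BH3-only genes Bcl2l11, Bid, Bbc3 and Pmaip1. Members were found through the transcript identifier of each probe that is not a control. All 10 had a probe, 19 probes in all, with 1 probe each for 6 genes and several for 4. On all 4 arrays, 18 of the 19 probes and at least 1 probe of each of the 10 genes were well above background by the scanner software's own mark.

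Dendritic cells grown from the femur marrow of wild-type male C57BL/6J mice were compared in 4 groups, with 1 single-colour Agilent array each. Cultures were fed GM-CSF at 10 ng/ml, the growth factor that drives this culture, in MEM holding 10% FBS, and collected on day 6. One group was left in medium without stimulation. The others received LPS (100 ng/ml), LA (20 mM, written L-(+)-LA in the labels, while the series title speaks of lactate), or LPS together with LA, each for 4 h. No time was given for medium, no pH for the groups with LA, and no number of animals behind a culture. The series was made to ask how lactate alters the inflammatory response of these cells. No group has a replicate, so each difference below is between 2 arrays, carries no p-value and leaves out how cultures vary. Having only 4 arrays limits the precision.

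Survival members hold the effectors and BH3-only proteins in check at the mitochondrion. When Bax or Bak1 oligomerise, the outer membrane becomes permeable, cytochrome c leaves, and caspases are activated. BH3-only proteins sense stress and start the process, either by occupying the survival proteins or by activating the effectors directly. In dendritic cells the family is known for setting how long a cell lives after it meets a microbial signal, with Bcl2l1 (Bcl-xL) and the A1 genes on the side of survival and Bcl2l11 (Bim) on the side of death. LPS, from the outer membrane of Gram-negative bacteria, acts on the receptor TLR4, which activates NF-kB, and Bcl2l1 and the A1 genes are textbook NF-kB targets.

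Of the A1 genes, Bcl2a1d is the one described, and mice carry closely related copies named Bcl2a1a, Bcl2a1b and Bcl2a1c. Promoter windows of RefSeq (GRCm38.p6, 300 bases, 250 before and 50 after a start) were found for 9 of the 10 members, 14 windows in all. Over these windows the longest run that Bcl2a1d shares without a mismatch is 108 bases with Bcl2a1c, 84 with Bcl2a1a and 84 with Bcl2a1b. The 250 bases before the start follow for Bcl2a1d (chr9:88731851-88732100, minus strand) and Bcl2a1c (chr9:114329885-114330134, plus strand), because these genes were the BCL2 family genes furthest above medium on the LPS array. Capitals mark the longest run common to both stretches, 58 bases, which begins at -58 from the start of Bcl2a1d and at -168 from that of Bcl2a1c.
Bcl2a1d: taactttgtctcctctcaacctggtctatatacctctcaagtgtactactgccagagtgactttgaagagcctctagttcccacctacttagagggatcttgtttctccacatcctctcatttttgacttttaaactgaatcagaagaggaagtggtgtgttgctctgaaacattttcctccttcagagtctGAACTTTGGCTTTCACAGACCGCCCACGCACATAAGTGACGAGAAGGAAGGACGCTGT
Bcl2a1c: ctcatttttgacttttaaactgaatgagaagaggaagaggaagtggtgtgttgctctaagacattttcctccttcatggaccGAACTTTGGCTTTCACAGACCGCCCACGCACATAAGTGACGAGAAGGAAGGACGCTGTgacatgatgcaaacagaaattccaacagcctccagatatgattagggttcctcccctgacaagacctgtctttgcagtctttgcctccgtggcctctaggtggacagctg
No probe matched Bcl2a1a or Bcl2a1b. Whether the Bcl2a1d probe also binds RNA of these copies or of Bcl2a1c cannot be told apart here, so its values are uncertain as values of 1 gene.

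For Bcl2l1 the second of its 3 windows (chr2:152830718-152830967, minus strand) is shown, because it holds a match to the NF-kB consensus, in capitals, at -242 from the start.
Bcl2l1: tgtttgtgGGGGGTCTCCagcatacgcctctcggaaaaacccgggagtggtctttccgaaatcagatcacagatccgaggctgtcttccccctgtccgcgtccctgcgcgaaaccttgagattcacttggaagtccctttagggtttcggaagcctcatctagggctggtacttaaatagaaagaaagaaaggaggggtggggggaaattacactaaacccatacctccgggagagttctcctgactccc
Searched on both strands, this consensus was found in 4.51% of 32851 RefSeq windows of this length. Among the members it was in 2 of 14 windows, the one shown and 1 of the 3 of Bbc3, where 3 matches overlap. The window of Bcl2a1d held no match, which says only that these letters are not within it. ACGTG or GCGTG, the core of the hypoxia response element, was in 43.8% of all windows and in 8 of the 14.

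A level below is the log2 of a probe's processed signal after division by the 75th percentile of its array, and for a gene with several probes the brightest stands for it. Levels compare arrays for 1 probe and do not rank genes against each other. The error given after a difference is the software's own estimate for the spots, which was close to 0.20 log2 units for bright probes. Probes printed 10 times on an array varied less, with a median SD of 0.05 log2 units on each of the 4 arrays.

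**Figure D1:**
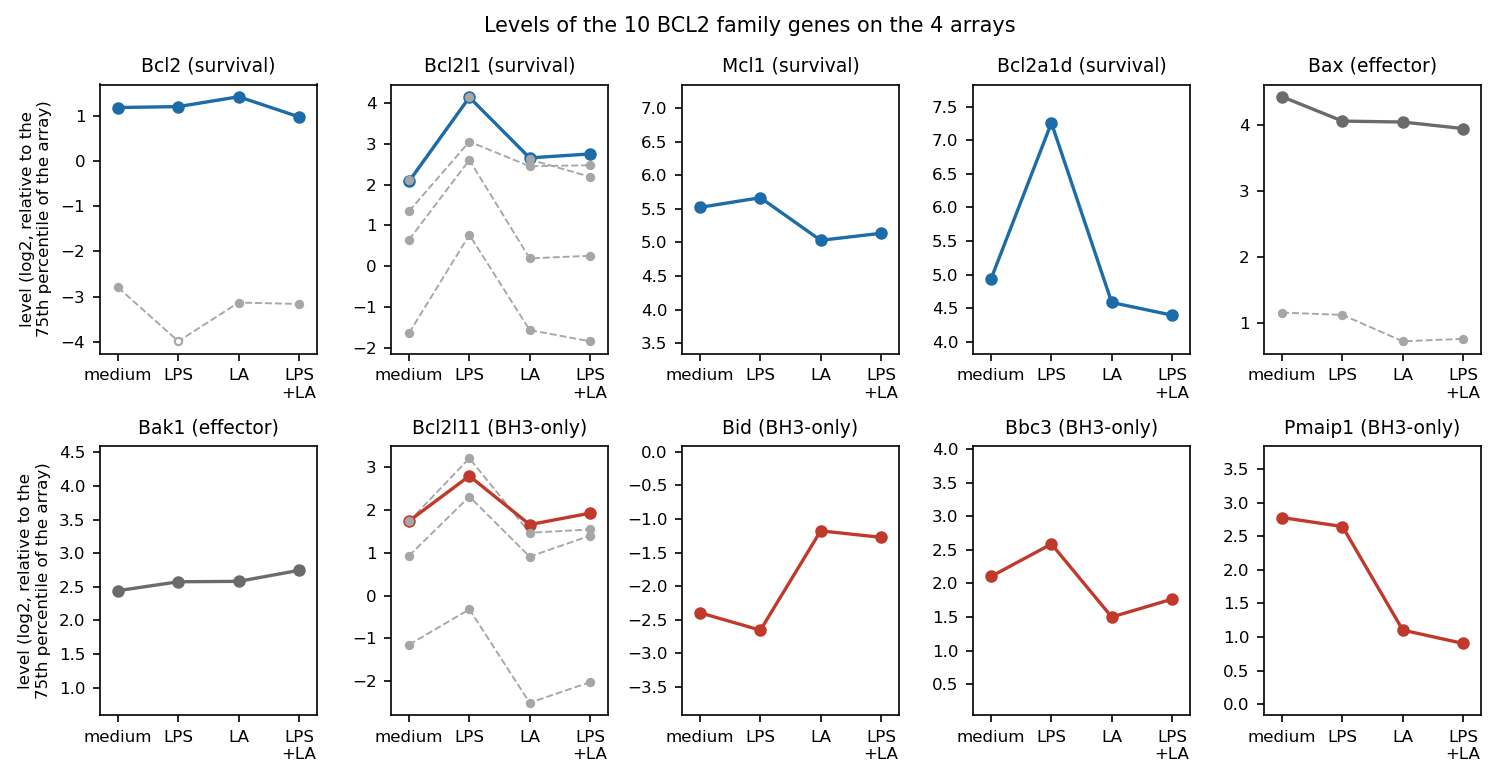
Log2 level, scaled to the array's 75th percentile, of every probe of the 10 genes on the 4 arrays, with the brightest probe in colour (blue survival, dark grey effector, red BH3-only), other probes in light grey with dashed lines, and an open point where a probe was not well above background. Panels have their own axes, lines only join the arrays of 1 probe, and the high LPS points of Bcl2l1 (4.14) and Bcl2a1d (7.26) and the low LA points of Pmaip1 (1.10 and 0.90) stand out.

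Among the survival genes, Bcl2a1d, which encodes the short-lived A1 protein, had processed signals of 5486 (medium), 26614 (LPS), 3801 (LA) and 3074 (both agents), or levels of 4.94, 7.26, 4.59 and 4.40. The LPS array alone was high, and the array with both agents was the lowest. Bcl2l1, the gene of Bcl-xL, had signals of 756, 3065, 997 and 982 in the same order, at levels of 2.08, 4.14, 2.66 and 2.75. LPS alone was again the high array, and both arrays with LA lay a little above medium. Bcl2 itself, the founding survival gene, gave signals of 404, 399, 422 and 286 and levels of 1.18, 1.20, 1.42 and 0.97, a spread of 0.44 over all 4 arrays. Mcl1, whose protein turns over quickly and is needed by many myeloid cells, lay at 5.52, 5.67, 5.03 and 5.14 (signals of 8209, 8823, 5172 and 5125), lower on both arrays with LA.

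Of the effectors, Bax, which moves from the cytosol to the mitochondrion when activated, had levels of 4.43 (medium), 4.06 (LPS), 4.05 (LA) and 3.95 (both). Medium was its highest array. Bak1, which sits in the mitochondrial membrane, lay at 2.44, 2.57, 2.58 and 2.74, and its range of 0.30 was the smallest of the 10 genes.

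Each BH3-only gene had its own pattern. Bcl2l11, the gene of Bim, had levels of 1.74 (medium), 2.80 (LPS), 1.66 (LA) and 1.93 (both), high on the LPS array alone. Pmaip1, which encodes Noxa, the partner of Mcl1 and A1, had signals of 1224, 1086, 340 and 273 and levels of 2.78, 2.64, 1.10 and 0.90. Both arrays without LA were high and both with LA low. Bid, which caspase-8 cleaves to link death receptors to the mitochondrion, was high on both arrays with LA and low on both without, on a dim probe, with signals of 33.9, 27.6, 69.9 and 60.3 and levels of -2.40, -2.65, -1.18 and -1.27. Its signals lay above the lowest signal marked well above background on each array (11.9, 15.4, 9.51 and 8.74). Bbc3, the gene of Puma, a p53 target, lay at 2.10, 2.59, 1.50 and 1.77, highest with LPS and lower on both arrays with LA.

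LPS was compared with medium to read the response to a microbial signal. The survival genes Bcl2a1d and Bcl2l1 were at the top of the members: Bcl2a1d was 4.99-fold higher (2.32 ± 0.20 log2 units) and Bcl2l1 was 4.17-fold higher (2.06 ± 0.20). Of 13592 genes measured on both arrays, 218 lay above Bcl2a1d and 288 above Bcl2l1. The BH3-only gene Bcl2l11 was higher as well, 2.07-fold (1.05 ± 0.20), with 1017 genes above it. Thus 3 of 10 members were at least 2-fold higher, against 8.14% of all genes, and 0 of 10 at least 2-fold lower, against 7.5%. The median difference of the members was 0.14, beside 0.00 for all genes.

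The other members were less than 2-fold apart between LPS and medium. Bbc3 differed by 0.48 and Bax by -0.37. Mcl1 (0.14), Bak1 (0.13) and Bcl2 (0.02) were within the spot error of 0.20, as were Pmaip1 (-0.13) and Bid (-0.26, spot error 0.28). So the survival genes spanned 0.02 to 2.32, the BH3-only genes -0.26 to 1.05, and the effectors -0.37 to 0.13. The 2-fold call of Bcl2l11 ended at 0.87 when arrays were scaled on widely detected probes (the 75th percentile over those well above background on all 4), at 0.81 with quantile normalization and at 0.82 in the authors' deposited table. Those scalings also turned the split of all genes, with 6.31% higher and 11.4% lower when scaled on widely detected probes and 5.53% and 12.8% in the authors' deposited table.

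**Figure D2:**
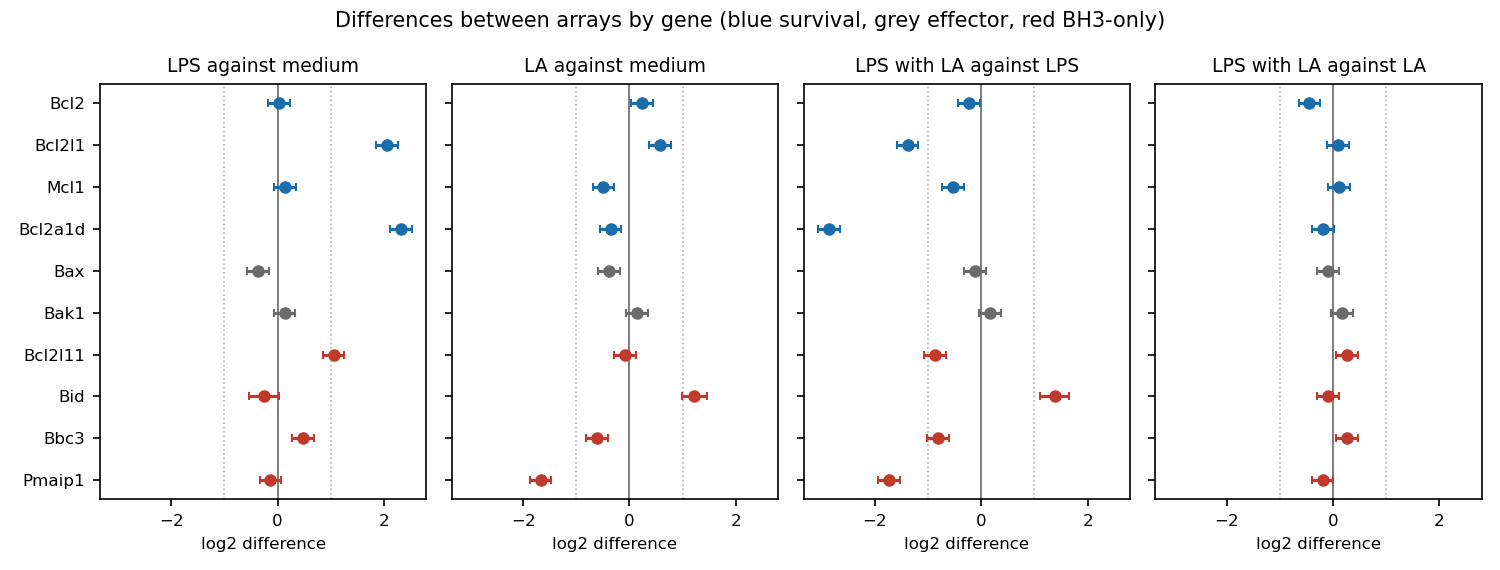
Log2 difference between 2 arrays for each of the 10 genes in 4 comparisons, with bars for the software's spot error (not a spread between cultures), a solid line at 0 and dotted lines at 1 and -1, the 2-fold limits. Bcl2l1, Bcl2a1d and Bcl2l11 pass the upper limit with LPS, Bid and Pmaip1 pass opposite limits with LA, and in LPS with LA against LA all 10 lie within the limits.

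With LA alone, set against medium to read what LA did to unstimulated cells, the BH3-only genes moved apart from each other. Pmaip1 was 3.19-fold lower (-1.67 ± 0.20), with 120 of 14554 measured genes below it. Bid was 2.33-fold higher (1.22 ± 0.23), with 239 genes above it. These were the 1 of 10 members at least 2-fold lower, against 3.33% of all genes, and the 1 of 10 at least 2-fold higher, against 3.12%. The distance between Bid and Pmaip1, each against its own medium value, was 2.89 ± 0.31 log2 units.

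None of the survival genes or effectors reached 2-fold with LA. Bcl2l1 differed by 0.58 and Bcl2 by 0.24, while Mcl1 (-0.49) and Bcl2a1d (-0.35) were on the other side of 0. Bax stood at -0.38, Bak1 at 0.14, Bbc3 at -0.60 and Bcl2l11 at -0.08. The median of the members was -0.22, beside 0.02 for all genes. The call of Bid rests on a dim spot and ended under normexp background correction, where it differed by 0.69. Over all genes the split was 3.90% higher and 2.65% lower when scaled on widely detected probes, and 4.26% and 2.23% in the authors' deposited table.

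The array of LPS with LA was then set against LPS alone, the comparison that reads LA during stimulation. Of the 4 survival genes, 2 were at least 2-fold lower: Bcl2a1d was 7.26-fold lower (-2.86 ± 0.20), with 203 of 13631 genes below it, and Bcl2l1 2.62-fold lower (-1.39 ± 0.20). Pmaip1 was 3.34-fold lower (-1.74 ± 0.20) and Bid 2.60-fold higher (1.38 ± 0.27). Of 10 members, 3 were at least 2-fold lower, against 12.5% of all genes, and 1 at least 2-fold higher, against 11.5%, so the higher count is near the background. Their median was -0.67, beside 0.00 for all genes.

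Lower by less than 2-fold were Bcl2l11 (-0.87), Bbc3 (-0.82) and Mcl1 (-0.53). Across the processing settings of the closing section, Bcl2l11 ran from -1.29 to -0.45, Bbc3 from -0.93 to -0.40 and Mcl1 from -0.64 to -0.05. The smallest Mcl1 value lay within the spot error. Bcl2 (-0.23), Bax (-0.11) and Bak1 (0.17) lay close to or within the spot error of 0.20. The 2-fold call of Bcl2l1 ended at -0.89 with quantile normalization and at -0.97 in the authors' deposited table, and that of Bid at 0.66 with normexp. With the mean of its probes in place of the brightest, Bcl2l11 passed the limit at -1.29. The split of all genes moved with the scaling, to 9.27% higher and 14.2% lower with the median of the array, 18.2% and 8.57% when scaled on widely detected probes, and 22.7% and 6.89% in the authors' deposited table.

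Between the arrays that both held LA, the family differed little. Comparing LPS with LA against LA, 0 of 10 members were at least 2-fold higher, against 0.906% of 14903 genes, and 0 of 10 at least 2-fold lower, against 1.5%, so that a count of 0 is near the background and says nothing particular to the family. The largest difference was that of Bcl2 (-0.44 ± 0.20). Bcl2a1d, 4.99-fold higher with LPS without LA, differed by -0.19 here, and Bcl2l1 by 0.10. Bcl2l11 and Bbc3 stood at 0.27 each, Bak1 at 0.16, Mcl1 at 0.10, Bid and Bax at -0.10 each, and Pmaip1 at -0.20.

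**Figure D3:**
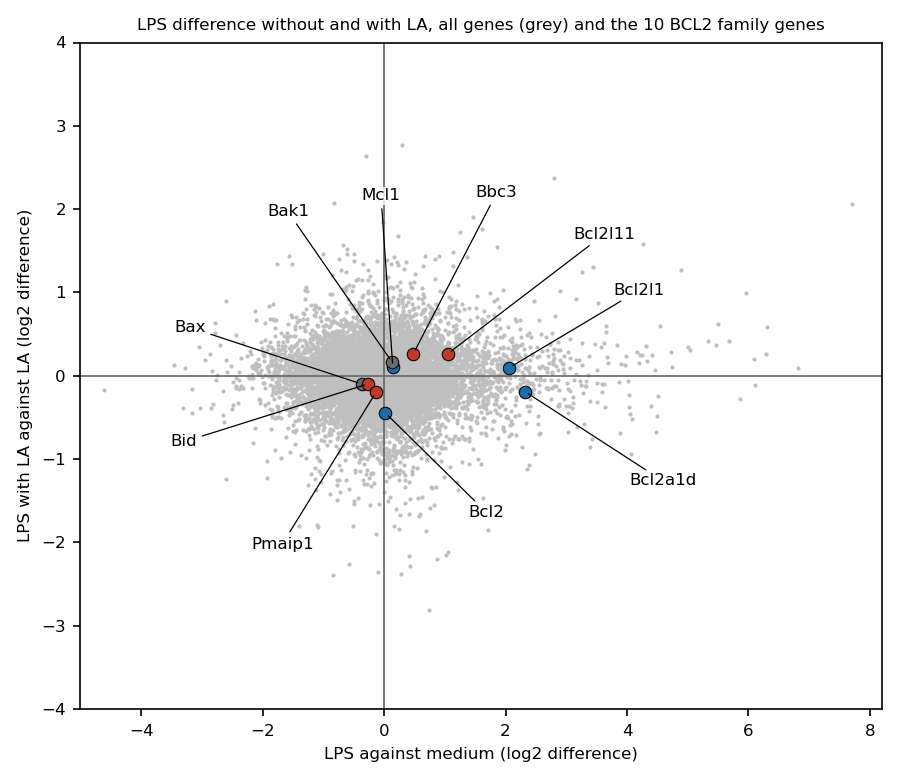
Log2 difference of LPS against medium (horizontal) and of LPS with LA against LA (vertical) for 13368 genes well above background on all 4 arrays (grey) and the 10 BCL2 family genes (blue survival, dark grey effector, red BH3-only). Bcl2a1d, Bcl2l1 and Bcl2l11 lie to the right at 2.32, 2.06 and 1.05, and all 10 genes lie between -0.44 and 0.27 on the vertical axis.

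Against medium, Pmaip1 and Bid were the members past the limit on the array with both agents. Pmaip1 was 3.66-fold lower (-1.87 ± 0.20), 1 of 10 members, against 3.98% of all genes, and Bid was 2.18-fold higher (1.12 ± 0.23), 1 of 10, against 3%. Bcl2l1 differed by 0.67, Bak1 by 0.30 and Bcl2l11 by 0.18, while Bcl2a1d (-0.54), Bax (-0.48), Mcl1 (-0.39), Bbc3 (-0.34) and Bcl2 (-0.21) were below 0. Over their probes, Bcl2l1 ran from -0.39 to 1.12 and Bcl2l11 from -0.88 to 0.47. Here too Bid lost its call under normexp, at 0.63. Scaled on widely detected probes, 3.99% of all genes were higher and 3.23% lower, and 4.62% and 2.42% in the authors' deposited table. These comparisons share arrays with each other, so a value of 1 array enters several of them.

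Subtracting the LA difference found in unstimulated cells from the one found under LPS uses all 4 arrays once. It was -2.51 ± 0.29 for Bcl2a1d, -1.96 ± 0.29 for Bcl2l1 and -0.79 ± 0.29 for Bcl2l11, the genes at least 2-fold higher on the array of LPS alone. That array enters with a minus sign, so negative values are favoured for genes picked as high on it. For Pmaip1 the difference of the differences was -0.07 and for Bid 0.16 (spot error 0.35), so their LA differences were of similar size with and without LPS. Bcl2 stood at -0.46, Bbc3 at -0.22, Mcl1 at -0.04, Bak1 at 0.03 and Bax at 0.27. The median was -0.14 over the members and -0.02 over 13368 genes. Below 0 were 7 of 10 members, and the share of all genes below 0 was not counted. Of those members, Mcl1, Pmaip1 and Bbc3 lay within the spot error of 0.29, and Bcl2 ran from -0.51 to 0.35 across the processing settings of the closing section.

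Balances between opposing members were read from the same arrays, where scaling cancels. Bcl2l1 gained on Bcl2l11, its BH3-only opponent, by 1.01 ± 0.29 log2 units with LPS, by 0.66 ± 0.29 with LA, and changed by -0.52 ± 0.29 when LA was added to LPS. The value with LA rests on the brightest Bcl2l1 probe, and its 5 probes did not share a sign there. When LA was added to LPS, the Bcl2l1 probes ran from -2.61 to -0.58 and the Bcl2l11 probes from -1.70 to -0.87. These ranges overlap, so the sign of that balance also depends on the probes taken. Bcl2 changed by -1.03 ± 0.29 against Bcl2l11 with LPS. Bcl2a1d gained 1.27 ± 0.29 over Bcl2l11 with LPS and changed by -1.99 ± 0.29 against it when LA was added. Bcl2l1 gained 2.43 ± 0.29 over the effector Bax with LPS and changed by -1.27 ± 0.29 against it when LA was added. Mcl1 was the other way about: against its partner Pmaip1 it gained 0.28 ± 0.29 with LPS, 1.18 ± 0.29 with LA and 1.21 ± 0.29 when LA was added to LPS, where Pmaip1 was lower by more than Mcl1 on both arrays with LA. These are differences of RNA signal on single arrays, and the arrays give nothing on protein.

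Probes of 1 gene allow a check on the brightest. All 5 probes of Bcl2l1 were at least 2-fold higher with LPS, between 1.70 and 2.41 log2 units. When LA was added to LPS, 4 of the 5 were at least 2-fold lower, between -2.61 and -0.58 over the 5. With LA alone they disagreed in sign, from -0.46 to 1.10. Bcl2l1 RNA is spliced to a long survival form and a short form that promotes death, and which form each probe reads was not examined.

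Of 4 probes of Bcl2l11, 3 were at least 2-fold higher with LPS (range 0.83 to 1.48) and 2 at least 2-fold lower when LA was added (range -1.70 to -0.87). With LA alone they spanned -1.36 to -0.02, and the probe at -1.36 was the dimmest. The second Bax probe differed by -0.04 with LPS, -0.44 with LA and -0.36 when LA was added to LPS. The second Bcl2 probe was dim, with signals of 25.7 (medium), 10.9 (LPS), 18.0 (LA) and 16.2 (both), and it was not well above background with LPS. There it was at least 1.62-fold lower than in medium, a bound set by the lowest signal above background on that array, while the bright Bcl2 probe differed by 0.02.

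**Figure D4:**
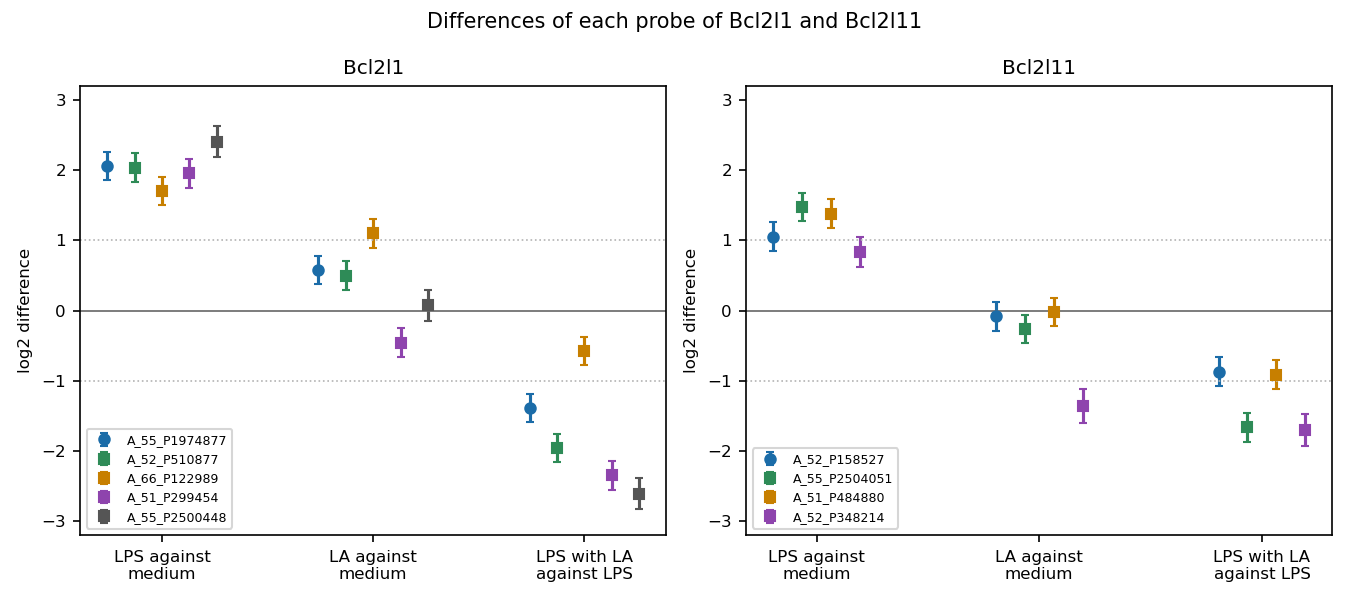
Log2 difference of each of the 5 probes of Bcl2l1 and the 4 probes of Bcl2l11 in 3 comparisons, with bars for the software's spot error, the brightest probe as a circle and the others as squares. All 9 lie above 0 with LPS and below 0 when LA was added to LPS, while the Bcl2l1 probes lie on both sides of 0 with LA alone.

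Other BCL2 family genes were read from a list of 16, of which 14 had a probe. With LPS, 1 of 10 measured genes was at least 2-fold higher and 1 lower, near the 8.14% and 7.5% of all genes, with a median of -0.43 beside 0.00. The higher one was Bcl2a1c, the A1 copy whose upstream bases are shown above. Its levels were 1.74 (medium), 4.96 (LPS), 1.21 (LA) and 1.15 (both). It was 9.31-fold higher with LPS, and adding LA left it 14.0-fold below LPS alone. Whether its probe also binds RNA of Bcl2a1d or the other copies cannot be told apart here, so its values are uncertain as values of 1 gene. The lower one was Bcl2l14, a poorly understood family member on a dim probe, 2.98-fold lower with LPS. Its signals were 71.8 (medium) and 23.5 (LPS).

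With LA, 1 of 9 measured genes of that list was lower (3.33% of all genes) and 0 higher (3.12%), with a median of -0.03 beside 0.02. That gene was Bnip3, a hypoxia-induced mitophagy receptor with a BH3-like stretch, which lay at 5.58 (medium), 5.38 (LPS), 2.90 (LA) and 2.68 (both). It was 6.44-fold lower with LA and 6.51-fold lower when LA was added to LPS. Bcl2l14 was at least 6.69-fold lower with LA, where it was not well above background. When LA was added to LPS, 3 of 10 were lower (12.5% of all genes) and 1 higher (11.5%), with a median of 0.09 beside 0.00: besides Bcl2a1c and Bnip3, Bcl2l15, a dim gene, was 2.10-fold lower, and Bmf, a BH3-only gene tied to the cytoskeleton, was 2.14-fold higher on its brighter probe. The second Bmf probe had signals of 100 (medium), 15.5 (LPS), 168 (LA) and 179 (both). It was not well above background with LPS. Bnip3l, a relative of Bnip3, differed by -0.61 with LA. In LPS with LA against LA, 0 of 9 measured genes were 2-fold apart, a count near the 0.906% higher and 1.5% lower of all genes, and Bcl2l14 was at least 2.68-fold higher.

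Below the family lies the pathway from cytochrome c to caspases, a list of 24 genes of which 23 were measured. By their brightest probes, LPS against medium had 5 of them 2-fold up or more, beside 8.14% of all genes, and 1 down, beside 7.5%, at a median of 0.09. Among them, Apaf1 and Cycs, the scaffold and the trigger of the apoptosome, were 1.61 log2 units higher each. The other Apaf1 probe stood at 0.72, short of the limit. Birc3 (1.20) and Birc2, the cellular inhibitors of apoptosis, were higher too, the latter exactly at the 2-fold limit. The one counted down was Casp9, the caspase of the apoptosome, but it differed by -1.55 on its brighter probe and 1.96 on the other, so no direction is given for it. Vdac3, a channel of the outer membrane, lay just under the limit, 1.99-fold higher.

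With LA alone, 1 of these 23 genes was at least 2-fold lower (Birc2, -1.24), beside 3.33% of all genes, and 0 higher, beside 3.12%, with a median of -0.28. When LA was added to LPS, 8 were lower (12.5% of all genes) and 1 higher (11.5%), with a median of -0.39. The higher one by its brighter probe was Casp9 again, at 1.92 there and -1.57 on the other probe. Among the lower genes were Birc2 (-2.42), Vdac3 (-1.97), Cycs (-1.93), Birc3 (-1.83), Apaf1 (-1.48), Htra2 (-1.12), a mitochondrial protease, and Parl (-1.01), a protease of the inner membrane. Other probes fell short of the limit for Apaf1 (-0.56), Htra2 (up to -0.87) and Parl (up to -0.42). In LPS with LA against LA, 0 of 23 were 2-fold apart, again near the 0.906% and 1.5% of all genes, with a median of 0.05 beside -0.02.

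Regulators that act on family genes or proteins were read from a list of 23, of which 22 were measured. LPS against medium had 6 of them 2-fold up or more, beside 8.14% of all genes, and 1 down, beside 7.5%, at a median of 0.21. The higher ones were Pim1 (2.48), a survival kinase, the NF-kB subunits Rel (1.92) and Nfkb1 (1.91), Mdm2 (1.57), which restrains p53, Trp73 (1.35), a p53 relative, and Hif1a (1.18), the hypoxia factor. Pim2, another such kinase, was at least 3.12-fold higher. The one counted down was Foxo3, which can activate Bcl2l11 and Bbc3 and differed by -1.31 on its brighter probe and by -0.21 on the other.

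With LA alone 2 of the 22 regulators were higher (3.12% of all genes) and 0 lower (3.33%), with a median of -0.15. They were Egr1, an immediate early factor (3.98), and Myc, a growth regulator that sensitises cells to death (1.94), and with both agents they were 4.22 and 1.76 above LPS alone. When LA was added to LPS, 8 were lower (12.5% of all genes) and 3 higher (11.5%), with a median of -0.53. Lower were Rel (-2.82), Hif1a (-1.90), Nfkb1 (-1.81), Pim1 (-1.76), Mdm2 (-1.52), Usp9x, which stabilises Mcl1 protein (-1.31), Ywhaz (-1.12), an adaptor that holds phosphorylated Bad, and Bag1 (-1.09), a BCL2-binding cochaperone. The other Ywhaz probe stood at -0.52, short of the limit. Pim2 was at least 3.45-fold lower. The counted higher genes were Egr1, Myc and Foxo3, but Foxo3 stood at 1.89 on its brighter probe and -0.15 on the other, so no direction is given for it. Comparing LPS with LA against LA, 0 of 22 were 2-fold apart, where all genes gave 0.906% higher and 1.5% lower.

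By their level over the 4 arrays, the genes closest to Bcl2l1 among 13368 were Tuba8, Il1f9 and Fpr1, with a root mean square difference of 0.04, 0.06 and 0.07 log2 units after centring. Those closest to Bcl2a1d were Rab11fip1, Slfn10-ps and Pttg1, at 0.05, 0.06 and 0.06. With 4 arrays such a likeness is a description only.

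Markers of cell types were read on the same arrays, since the labels name no sort. Of 13 dendritic cell markers, 12, 11, 12 and 12 were well above background on the medium, LPS, LA and combined arrays, and Xcr1 was below on all 4. Markers of other cells were present as well, with 10 or 11 of 11 for macrophages and monocytes and 14 of 14 for neutrophils and their precursors on each array. Summed in units of the 75th percentile, the dendritic cell markers gave 292, 325, 230 and 218 on those arrays and the macrophage and monocyte markers 149, 184, 128 and 119. Such sums follow the brightest probes. In medium the dendritic cell sum rested mainly on Cd74, H2-Ab1 and H2-Aa (levels of 6.88, 6.52 and 5.91). The medians of the dendritic cell list and of the macrophage and monocyte list were -0.38 and -0.22 with LA, beside 0.02 for all genes. When LA was added to LPS they were -0.31 and -0.72, beside 0.00. There 4 of 11 measured dendritic cell markers were at least 2-fold lower (12.5% of all genes) and 1 higher (11.5%). The neutrophil markers lay the other way, with a median difference of 0.55 with LA and 0.96 when LA was added to LPS. In the latter, 7 of 14 were at least 2-fold higher (11.5% of all genes) and 0 lower (12.5%). Their summed signal was 710, 794, 915 and 946, resting mainly on S100a9 and Csf3r (levels of 7.96 and 7.93 in medium). With LPS this sum was higher than in medium, while the median difference of the list was -0.19. For mast cells, basophils and eosinophils the summed signal was 54.6, 85.0, 103 and 109. Of 9 lymphocyte and NK cell markers, 5, 5, 7 and 6 were well above background, Cd4 and Cd3e among them on all 4 arrays, and Ms4a1 and Ncr1 on none. The part of these markers in the LA differences of Pmaip1, Bid and the survival genes was not tested. In such a mixed culture, fewer cells of a type and less RNA per cell cannot be told apart.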

How the data were processed

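RNA of dendritic cell cultures was measured on 4 arrays; per the labels' protocols it was extracted with Roche's High Pure kit, and Cy3 cRNA was made with Agilent's Low Input Quick Amp kit. Per the file headers, the deposited intensity is the processed signal of Agilent Feature Extraction 12.0.3.1, background-subtracted, linear and unscaled (mm9 build); version 11.5.1.1 stands in the submitters' processing notes. Outlier spots were left out (129 to 154 of 59305 on an array), 0 spots were saturated, and 56.5 to 64.1% of spots were well above background. Of 56605 probes, 33767 matched 1 RefSeq symbol (GRCm38.p6 table) through their transcript, 22838 none and 0 several. A second deposited table gives intensities of 31529 spots, equal to the signal times 1 factor per array (5.82 to 9.30), linear and not centred, with column medians of 1038 (medium), 873 (LPS), 1164 (LA) and 1189 (both agents).

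A gene counted as measured when both arrays compared showed its probe well above background, and as apart from 1 log2 unit. A probe above background on 1 array gave a bound against the lowest such signal on the other. With 1 array a group no test was run and no replicates could be compared. The text names all members, every gene of the other lists at least 2-fold apart in LPS against medium, LA against medium or LPS with LA against LPS, and the 3 genes nearest to members ranging over at least 2 log2 units; Vdac3, Bnip3l and the marker genes were named after their values were seen. For 1 listed gene this rule covers, values are not reported here. The members and lists were chosen with earlier results of these data known. Python 3.11.15 (numpy 2.4.6, pandas 2.3.3) was used, and R 4.3.3 with limma 3.58.1 for quantile normalization and normexp (offset 50), run on median spot signals because no mean signals are in the array files. The calculation was tested on simulated data. Alternatives are given in the closing section.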

Additional observations from a re-analysis of the deposited data

Results flagged for a closer look

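In the main processing, the LA differences of 2 of the 10 genes had opposite signs without and with LPS. With 1 array a group this was not tested. Bcl2l1 was 0.58 log2 units higher with LA than in medium and -1.39 when LA was added to LPS, a difference of the differences of -1.96. Over its 5 probes the LA difference without LPS ran from -0.46 to 1.10, so the first direction depends on the probe. Bcl2 differed by 0.24 and -0.23, a difference of the differences of -0.46, and each part was close to the spot error of 0.20. With the mean of its probes, which takes in the dim one, the difference of the differences for Bcl2 was 0.35. Across the processing settings below, Bcl2 ran from -0.05 to 0.39 with LA and from -0.33 to 0.30 when LA was added to LPS. Neither of its signs therefore held in every setting.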

How the results depend on the processing

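The counts of members at least 2-fold apart and the differences of each member were recomputed under 9 alternatives, all chosen with earlier results known. Normexp background correction left 0 members at least 2-fold higher in LA against medium, 0 in LPS with LA against LPS and 0 in LPS with LA against medium, each 1 before, since the dim gene Bid fell short at 0.69, 0.66 and 0.63. In the other settings every count stayed within 1.5 times its value, although Bcl2l11 (LPS against medium) and Bcl2l1 (LPS with LA against LPS) crossed the 2-fold limit as given in the report. Across settings, Bcl2a1d ran from 2.08 to 2.38 with LPS and from -2.97 to -2.37 when LA was added, Bcl2l1 from 1.72 to 2.12 with LPS, and Pmaip1 from -1.73 to -1.50 with LA. No called difference changed sign. Small differences did: those of Bcl2, Bak1 and Mcl1 with LPS, of Bcl2 and Bcl2l11 with LA, of Bcl2 and Bax when LA was added to LPS, of Bcl2l1 in LPS with LA against LA, of Bcl2l11 in LPS with LA against medium, and the difference of the differences of Bcl2, Bak1, Bbc3, Bid, Mcl1 and Pmaip1. Scaling moved the median of all genes by -0.19 (widely detected probes) and -0.24 (the authors' deposited table) with LPS, by 0.28, 0.43 and -0.11 (the last with median scaling) when LA was added to LPS, and by 0.15 with LA and 0.18 for LPS with LA against medium in the authors' deposited table. No paired analysis was possible because each group holds 1 array. Dim probes, such as those of Bid, Bcl2l14, Bcl2l15 and the second Bcl2 probe, lie near background, which limits their precision.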
